A study of Homo sapiens with 4 samples.

Results

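IRAK1, IRAK2, TRAF6, CARD10, ROCK1, COPS8, NUMB, SMAD4, UHRF1 and RELB are 10 genes that earlier work has named as targets of the miR-146 microRNA family. Their mRNAs were measured in human A549 lung adenocarcinoma cells made to express the precursor pre-miR-146b. Every probe whose gene symbol in the array's annotation is one of these names was taken, which gave 13 of the 24526 probes on the array and 10 of its 16922 named genes. A549/146b is a puromycin-selected population of A549 cells transduced with a lentivirus that carries pre-miR-146b in the 3′ untranslated region of a red fluorescent protein gene, TurboRFP, under the cytomegalovirus promoter, which is active in most cell types. A549/vec was made in the same way with the empty vector. Both lines were kept in DMEM with 10% serum and 2 µg/ml puromycin, and neither is a single clone. Each was grown on 2 occasions, side by side with the other, and 1 array was hybridized for each line and occasion, so that there were 2 arrays of A549/146b and 2 of A549/vec.

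A microRNA is loaded into an Argonaute protein and pairs, mostly through bases 2 to 8 at its 5′ end, the seed, with sites in the 3′ untranslated region of mRNAs. The mRNA is then translated less, degraded sooner, or both. The family, miR-146a above all, is best known from the innate immune response, where NF-kB switches on its transcription and it lowers IRAK1 and TRAF6, the kinase and the ubiquitin ligase that carry the signal of Toll-like and interleukin-1 receptors to NF-kB. An array of this kind measures mRNA abundance, and a change in translation alone would leave no trace on it.

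The mature microRNAs cut from the expressed precursor are shown with their seed in capitals, because the seed sets which mRNAs can pair with them. The sequences and positions come from RefSeq (GRCh38.p14), and miR-146a-5p, the product of the other gene of the family, is given for comparison.
miR-146b-5p: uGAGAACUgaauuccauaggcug
miR-146b-3p: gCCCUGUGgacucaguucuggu
miR-146a-5p: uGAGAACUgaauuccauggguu
miR-146b-5p, 23 bases long, lies at chr10:102436520-102436542 on the + strand, and miR-146b-3p, 22 bases long, lies downstream of it in the same precursor at chr10:102436557-102436578. miR-146a-5p is encoded on another chromosome, at chr5:160485372-160485393 on the + strand. The 5p microRNAs of both genes are the same over the first 17 bases. With miR-146a-5p as the first letter and positions counted from the 5′ end, they differ by G18A and U21C, both outside the seed. The site that pairs with their seed reads AGTTCTC in an mRNA's DNA sequence, and the site for the miR-146b-3p seed reads CACAGGG. Of the 2370 human mature microRNAs in the table, 2 others carry the miR-146b-5p seed, and none carries that of miR-146b-3p. The 10 genes are listed as targets of the family, and sites in their own mRNAs were not searched here. The level of the microRNAs themselves was not measured by the probes used here.

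Values are the authors' normalized signals on a linear scale, in arbitrary units. A probe was taken as expressed, and tested, where its detection p, the chance of such a signal from negative control beads, was under 0.01 on at least 1 array. All 10 genes had exactly 1 probe that passed, so 10 of the 13 probes were tested, among 10559 probes in all. Per array 39.2% to 42.1% of the probes were detected, and the median normalized signals were 82.6 to 82.8. Of the epithelial markers KRT8, KRT18, KRT19 and CDH1 were expressed and EPCAM was not. Their signals summed to 7488 and 5910 in A549/146b, against 10288 and 6481 in A549/vec, and the part of this in the targets' values was not tested. Of the alveolar type II markers on the array 1 of 7 (ABCA3) was expressed and no surfactant gene was, and of the leukocyte markers 1 of 5 (CD14) and not PTPRC. No fibroblast or endothelial marker was expressed, and none of the marker genes differed between the lines at an adjusted p under 0.05 from limma. Over the tested probes A549/vec replicate 1 lay farthest from the mean of the other 3 arrays, at a median absolute log2 distance of 0.156, against 0.084 to 0.123 for the others. The lines differed more on occasion 1, with a median absolute log2 difference over all tested probes of 0.194 against 0.099 on occasion 2. For this reason each target's difference is given for each occasion.

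No target passed the test for a difference between A549/146b and A549/vec in either direction. Their log2 fold changes, A549/146b minus A549/vec, ran between -0.21 (IRAK1) and 0.23 (ROCK1), and the median was 0.01, against 0.00 over all tested probes. Of the 10 probes 4 lay below 0 and 6 above. In the paired limma fit 0 of 10 were called at an adjusted p under 0.05 and 0 of 10 had an unadjusted p under 0.05, where over all tested probes 0.928% were called (98 probes, 0.492% lower and 0.436% higher) and 12.2% had an unadjusted p under 0.05. The smallest change that was called anywhere on the array had a size of 0.50 on the log2 scale, an increase of 41.9% or a decrease of 29.5% and no target came near it. In bulk RNA fewer cells that express a gene and less RNA per cell cannot be told apart. The standard error was 0.14 for each target, since with 2 arrays per line it rests on a spread shared by all probes and not on the target's own.

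**Figure D1:**
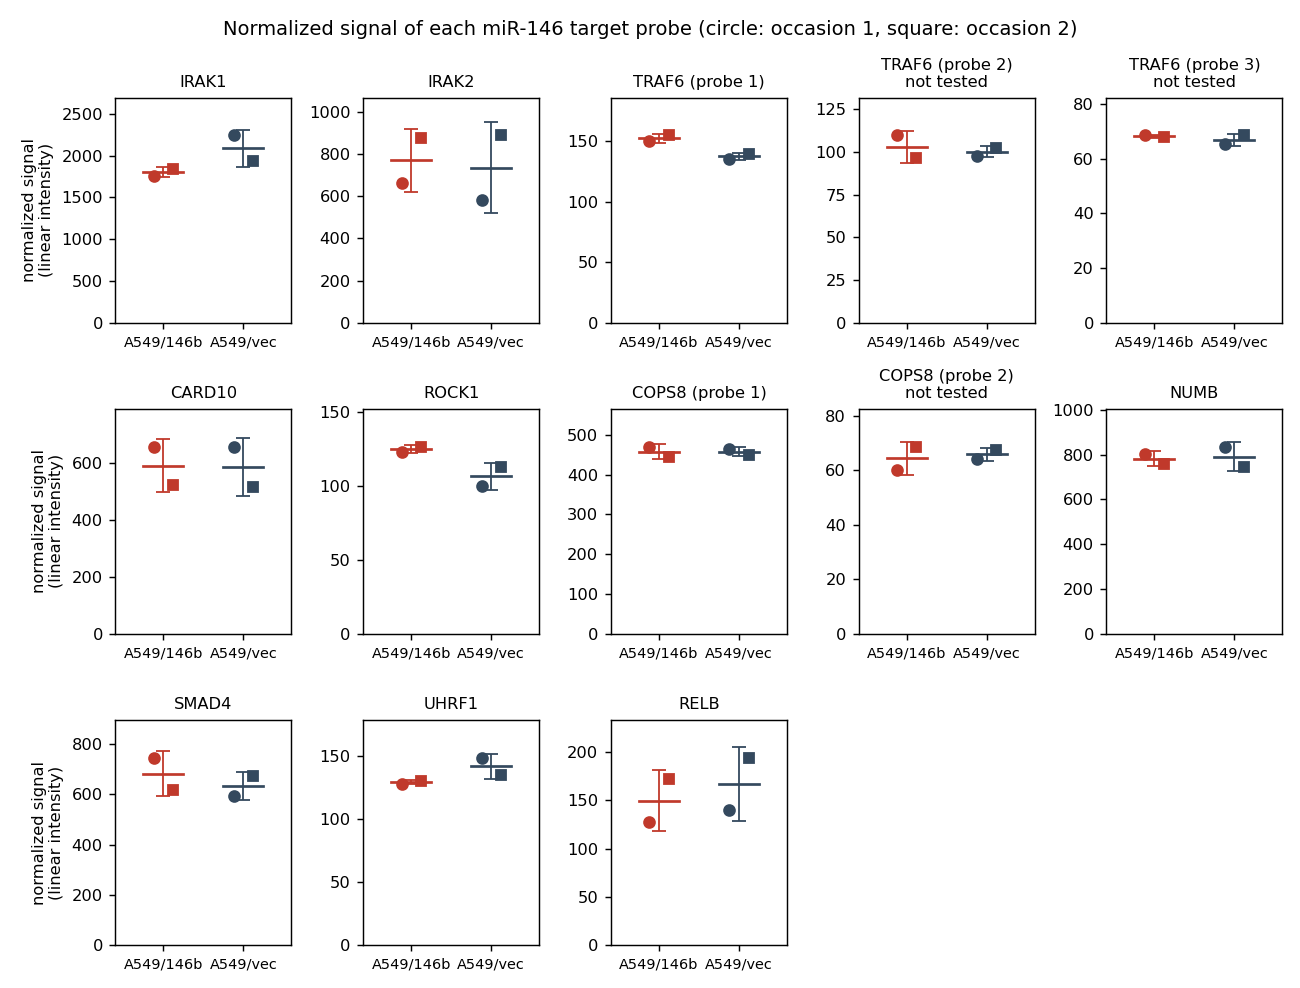
Normalized signal (linear scale, arbitrary units) of all 13 target probes, A549/146b on the left and A549/vec on the right of each panel; circles are occasion 1, squares occasion 2, bars the mean and whiskers the SD (n = 2). IRAK1 sits at 1759.85 and 1846 in A549/146b, below the 2244 and 1934 of A549/vec, while the squares of IRAK2 and RELB stand above the circles in both lines.

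IRAK1 and IRAK2 are kinases that join the receptor complex through MyD88. IRAK1 had 1759.85 and 1846 in A549/146b on occasions 1 and 2, against 2244 and 1934 in A549/vec, means of 1803 ± 60.6 and 2089 ± 219 (SD, n = 2 each). Both A549/146b arrays lay below both A549/vec arrays. The gap was wide on occasion 1 and narrow on occasion 2, with log2 differences of -0.35 and -0.07. The fitted change was -0.21 on the log2 scale, or -13.5% (95% interval -28.8% to 5.1%), with an adjusted p of 0.585 from limma. Over all tested probes 12.3% had a fold change below that of IRAK1. Without A549/vec replicate 1, the highest of its 4 values, the difference was -0.10.

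IRAK2 had 665 and 879 in A549/146b, against 584 and 891 in A549/vec. The groups overlapped, and the differences on the occasions, 0.19 and -0.02, had opposite signs. The fitted change was 0.08 (95% interval -0.20 to 0.37, adjusted p = 0.873 from limma). The IRAK2 arrays lay further apart by occasion than by line. With 1 array left out the fit is unpaired, so that it also takes in the difference between occasions. The change was then -0.22 without A549/vec replicate 1 and 0.39 without replicate 2 of that line.

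TRAF6 is the ubiquitin ligase that the IRAK kinases engage. It was read by 3 probes, of which only the brightest was expressed. That probe had 149.7 and 155 in A549/146b, against 135 and 139 in A549/vec, means of 152 ± 3.58 and 137 ± 2.53 (SD, n = 2 each). Both A549/146b arrays lay above both A549/vec arrays, and the differences on the occasions were alike, 0.14 and 0.15. The fitted change was 0.15, or 10.9% (95% interval -8.74% to 34.7%, adjusted p = 0.734 from limma), which 20.2% of all tested probes exceeded. With neqc in place of the authors' normalization it was 0.23. TRAF6 thus lay on the other side of 0 from IRAK1.

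The second TRAF6 probe, for the same transcript, had 109.8 and 96.2 in A549/146b, against 97.9 and 102 in A549/vec, and its detection p was 0.0129 or 0.0162 on each array, just short of the limit. Its values overlapped between the lines. With the detection limit set at 0.05 it entered the fit with a fold change of 0.04 (adjusted p = 0.946 from limma). The third probe, for the other TRAF6 transcript, was not detected on any array, with 68.6 and 67.9 in A549/146b, against 65.5 and 68.6 in A549/vec.

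CARD10, also called CARMA3, is a scaffold that links G protein-coupled and growth factor receptors to NF-kB through BCL10 and MALT1. It had 657 and 523 in A549/146b, against 657 and 514 in A549/vec. The lines were nearly the same on each occasion, with log2 differences of 0.00 and 0.03, and the fitted change was 0.01 (95% interval -0.27 to 0.29, adjusted p = 0.987 from limma). RELB is the NF-kB subunit that pairs with the NFKB2 product in the alternative pathway. It had 127 and 172 in A549/146b, against 139.8 and 195 in A549/vec. It was lower in A549/146b on both occasions, by log2 differences of -0.13 and -0.17, but the arrays of the lines overlapped because the occasions lay further apart than the lines. The fitted change was -0.15, or -10.1% (95% interval -26% to 9.24%, adjusted p = 0.724 from limma). With 1 array left out the fit is unpaired and also takes in the difference between occasions. The sign of RELB then turned, to 0.06 without A549/146b replicate 1 and 0.09 without A549/vec replicate 2. The change was -0.37 without A549/146b replicate 2 and -0.39 with the first A549/vec array left out.

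ROCK1 is a kinase that drives actomyosin contraction. It had 123 and 127 in A549/146b, against 100.1 and 113 in A549/vec, means of 125 ± 2.42 and 107 ± 9.11 (SD, n = 2 each). The probe was detected on 2 of 2 A549/146b arrays and on 1 of 2 A549/vec arrays, where its detection p was 0.0162 in replicate 1. Both A549/146b arrays lay above both A549/vec arrays, by 0.30 on the log2 scale on occasion 1 and by 0.16 on occasion 2. The fitted change of 0.23, or 17.5% (95% interval -3.31% to 42.7%, adjusted p = 0.529 from limma), was the largest of the 10 targets, and 19.9% of all tested probes lay further from 0. It was 0.14 without A549/vec replicate 1 and 0.40 with neqc.

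COPS8 is a subunit of the COP9 signalosome, which removes NEDD8 from cullin ubiquitin ligases. It had 471 and 445 in A549/146b, against 466 and 449.8 in A549/vec. The lines overlapped, and the fitted change was 0.00 (95% interval -0.28 to 0.28, adjusted p = 0.999 from limma). The COPS8 probe for the other transcript was not detected on any array, with 60.1 and 68.8 in A549/146b, against 64.3 and 67.5 in A549/vec.

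NUMB, an endocytic adaptor that restrains Notch, had 804 and 757 in A549/146b, against 836 and 744 in A549/vec, which overlapped. Its fitted change was -0.01 (95% interval -0.30 to 0.27, adjusted p = 0.986 from limma). SMAD4, the partner that all receptor-activated SMADs of the TGF-beta and BMP pathways share, had 747 and 618 in A549/146b, against 595 and 672 in A549/vec. It was higher in A549/146b on occasion 1, by 0.33, and lower on occasion 2, by -0.12, and the fitted change was 0.10 (95% interval -0.18 to 0.38, adjusted p = 0.835 from limma).

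UHRF1 reads hemimethylated DNA at the replication fork and brings DNMT1 to it. It had 128 and 130.4 in A549/146b, against 149 and 135 in A549/vec, so that both A549/146b arrays lay below both A549/vec arrays. The differences on the occasions were -0.22 and -0.05, and the fitted change was -0.13, or -8.67% (95% interval -24.8% to 11%, adjusted p = 0.772 from limma). As with IRAK1, the A549/146b arrays were close together and A549/vec replicate 1 was the highest of the 4. Without that replicate the difference was -0.06, and with neqc it was -0.20.

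**Figure D2:**
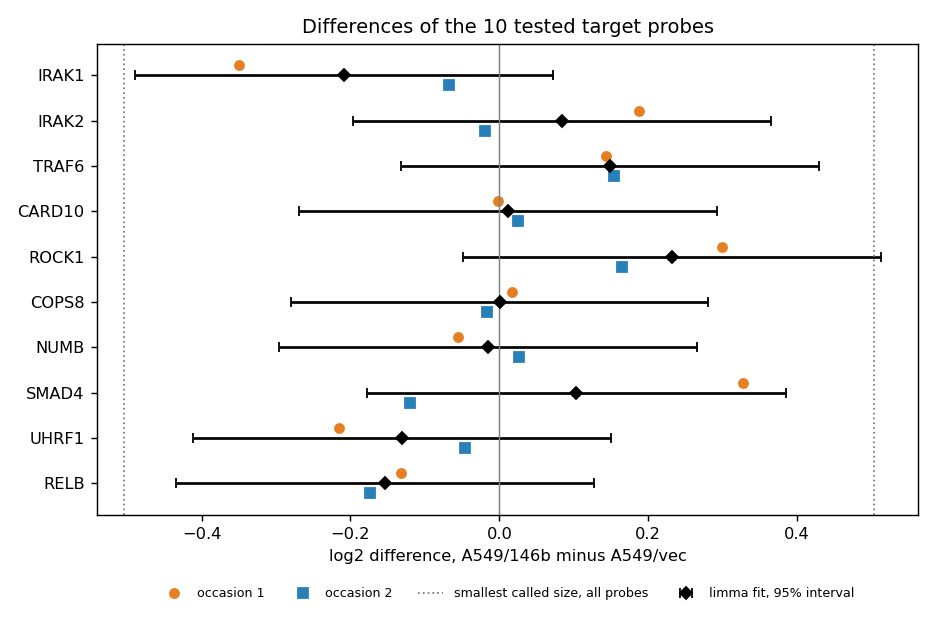
Log2 difference, A549/146b minus A549/vec, of the 10 tested target probes on occasion 1 (orange circles) and occasion 2 (blue squares), with the limma fit and its 95% interval (black). Every interval contains 0, and no fitted value comes near the dotted lines at 0.50, the smallest size called anywhere on the array.

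For IRAK1, TRAF6, ROCK1 and UHRF1, 4 of the 10 targets, the arrays of the lines did not overlap. Over all tested probes this held for 44%, 22% with A549/146b lower and 22% with A549/146b higher, and the targets' share was thus near that of any probe. IRAK1 and UHRF1 were the 2 lower ones and TRAF6 and ROCK1 the 2 higher ones. A further count takes the direction on each occasion. IRAK1, UHRF1 and RELB were lower on both occasions (3 of 10, against 29.1% of all tested probes), TRAF6 and ROCK1 were higher on both (2 of 10, against 29.2%), and the other 5 targets differed in direction between the occasions. In all 5 of 10 targets kept their direction, against 58.4% of all tested probes. The size of the targets' changes was close to that of other probes. Their median absolute log2 fold change was 0.117, against 0.121 over all tested probes. On occasion 1 the median absolute difference was 0.166 for the targets, against 0.194 over all tested probes, and on occasion 2 it was 0.057 for the targets and 0.099 over all tested probes.

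**Figure D3:**
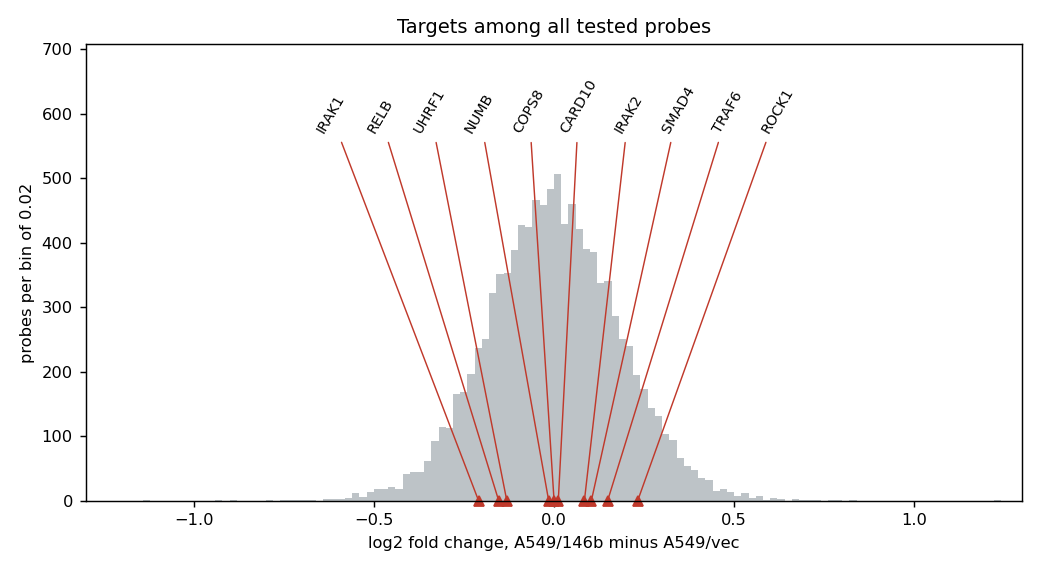
Number of tested probes per bin of 0.02 on the log2 scale (grey, 10559 probes) by log2 fold change, A549/146b minus A549/vec, with the 10 targets marked as red triangles. The targets lie within the bulk of the distribution on both sides of 0, between -0.21 for IRAK1 and 0.23 for ROCK1.

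IRAK2, RELB and CARD10 each had an unadjusted p under 0.05 between the occasions, a comparison made after the values were seen. The same limma fit gives the difference between occasion 2 and occasion 1 over both lines. IRAK2 had 879 in A549/146b and 891 in A549/vec on occasion 2, against 665 and 584 on occasion 1, a log2 difference of 0.51 (95% interval 0.23 to 0.79). Its unadjusted p was 0.000426 and its adjusted p from limma 0.0977. RELB had 172 in A549/146b and 195 in A549/vec on occasion 2, against 127 and 139.8 on occasion 1, a log2 difference of 0.46 (95% interval 0.18 to 0.74) with an adjusted p of 0.233 from limma. CARD10 went the other way, by -0.34 (95% interval -0.62 to -0.06, adjusted p = 0.852 from limma).

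None of these 3 passed after adjustment, where 0.331% of all tested probes were called between the occasions. An unadjusted p under 0.05 was found for 3 of the 10 targets, against 4.38% of all tested probes, and for 2 of the 10 with occasion 2 higher, against 1.9%. Only 0.208% of all tested probes had an occasion difference above that of IRAK2. In both lines IRAK2 and RELB were higher on occasion 2, IRAK2 by 0.40 in A549/146b and 0.61 in A549/vec, and RELB by 0.44 and 0.48. Of the 8 expressed genes in the list of NF-kB subunits and inhibitors, which also holds the upstream kinase MAP3K14, 4 had an unadjusted p under 0.05 between the occasions, and none was called. They were MAP3K14 (0.35), NFKB2 (0.34) and NFKBIE (0.48), higher on occasion 2, and NFKBIZ (-0.39), lower. Over the 8 genes of that list the median difference between occasions was 0.02, with 4 of 8 above 0, against a median of 0.003 over all tested probes. In the list of Toll-like and interleukin-1 receptors, adaptors and IRAK kinases 2 of 6 genes had an unadjusted p under 0.05 (PELI1 and PELI2, both -0.28). So did 1 of 14 relay genes and 1 of 8 NF-kB responsive genes, in both cases TNFAIP3 (0.33), and 0 genes in the remaining 5 lists. The occasions differ in culture, RNA preparation and array at once, which cannot be told apart.

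**Figure D4:**
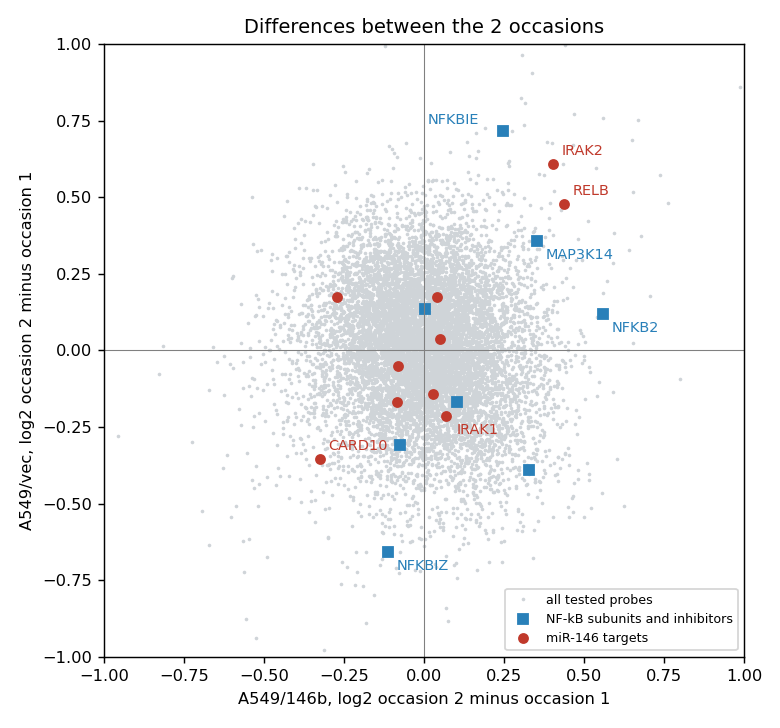
Log2 difference between occasion 2 and occasion 1 in A549/146b (horizontal axis) and in A549/vec (vertical axis), for all tested probes (grey), the 10 targets (red circles) and the 8 expressed genes of NF-kB subunits and inhibitors (blue squares); 9 grey probes lie outside the axes. IRAK2 and RELB sit at the upper right with MAP3K14 and NFKBIE, above 0 in both lines, and CARD10 at the lower left. NFKBIZ is lower on occasion 2, and over both lines the median difference of the 8 blue genes is 0.02, with 4 of 8 above 0.

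The genes that work with the targets were read from lists by role, with the brightest expressed probe of each gene. Upstream, most Toll-like and interleukin-1 receptors were not expressed. Of 19 receptors, adaptors and IRAK kinases on the array 6 were tested, and TLR1 to TLR6, IL1R1, IL1RAP, IL18R1 and IRAK3 were among those that were not. None of the 6 was called, 2 lay below 0 and the median log2 fold change was 0.07. Of the 6 genes 4 differed in direction between the occasions, TOLLIP, SIGIRR and PELI1 among them. The median turned to -0.02 with a detection limit of 0.05, and with 1 array left out it was -0.03 without either A549/146b array, -0.04 without A549/vec replicate 2 and 0.14 with the first A549/vec array left out. The smallest p-values belonged to TOLLIP (-0.15), which damps the receptor complex, SIGIRR (0.13), an inhibitory receptor of the family, PELI1 (0.12), a ubiquitin ligase that acts on IRAK1, and TICAM1 (0.10), the adaptor of TLR3.

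The list of the ubiquitin and kinase relay to NF-kB had 14 of 17 genes expressed, and none was called. It holds genes that pass the signal on from TRAF6, but also genes that restrain it, such as TNFAIP3. The partners of CARD10, BCL10 and MALT1, stand in it too. The median of this mixed list was 0.08, or 0.03 without A549/vec replicate 1, and 5 genes lay below 0. MALT1, the protease that works with CARD10 and BCL10, had 298 and 244 in A549/146b, against 203 and 231 in A549/vec, a log2 fold change of 0.32 (adjusted p = 0.333 from limma). UBE2N, the ubiquitin-conjugating enzyme that TRAF6 uses, had 0.24, and CHUK, the kinase IKK-alpha, had 0.21. MAP3K7, the kinase TAK1, had 0.17, with -0.02 from its other probe. On occasions 1 and 2 UBE2N had 0.42 and 0.07, CHUK 0.13 and 0.28, and the brightest MAP3K7 probe 0.33 and -0.00028.

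The list of NF-kB subunits and inhibitors had a median of -0.25, against 0.00 over all tested probes. Of its 8 expressed genes 7 lay below 0, against 50.5% of all tested probes. None of the 8 was called. On occasion 1 their median was -0.36 and on occasion 2 it was -0.08. Of the 8 genes 3 kept their direction (37.5%, against 58.4% of all tested probes) and 5 did not. NFKB2, the partner of RELB, had 162 and 239 in A549/146b, against 250.2 and 272 in A549/vec, and both A549/146b arrays lay below both A549/vec arrays. Its log2 fold change was -0.40 (adjusted p = 0.164 from limma), with -0.36 from its second probe. MAP3K14, the kinase NIK that triggers NFKB2 processing, had 186 and 238 in A549/146b, against 232 and 298 in A549/vec, and -0.32. RELA had -0.27. NFKBIB, which encodes IkB-beta, had -0.26, but 0.05 from its other probe. The median of the list was -0.12 without A549/vec replicate 1, -0.13 when the first A549/146b array was dropped, and -0.17 with the mean over each gene's probes.

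Of 16 NF-kB responsive genes on the array 8 were expressed, 5 of them below 0, with a median of -0.07. The median changed sign with the setting, to 0.04 with detection on all arrays and 0.07 without A549/vec replicate 2, against -0.19 with replicate 1 of that line left out. TNFAIP2, which encodes a protein of membrane nanotubes and is induced by TNF, fell in A549/146b, the only one of the 8 that was called (0.492% of all tested probes were called lower). It had 325 and 282 in A549/146b, against 486 and 382 in A549/vec, a log2 fold change of -0.51 (adjusted p = 0.0442 from limma). The call held in 1 of 12 alternatives, the one without A549/vec replicate 2, and with replicate 1 of that line left out the change was -0.34. The chemokines did not move one way. CXCL2 had -0.49 (adjusted p = 0.055 from limma), CXCL8 had 0.46 (adjusted p = 0.0806 from limma) and CXCL5 had 0.23. CXCL5 had 0.52 on occasion 1 and -0.06 on occasion 2, while CXCL2 and CXCL8 kept their direction.

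The partners of the remaining targets held no called gene. In the COP9 signalosome 7 of 8 other subunits were expressed, with a median of 0.06. Their brightest probes ran between -0.11 for COPS6 and 0.10 for COPS3, and COPS8 lay within that range. The other probe of the subunit GPS1 lay outside it, at -0.28. With the mean over each gene's probes the median of the subunits was 0.0055. With 1 array left out it ran between -0.0071 and 0.0156. COPS5, the catalytic subunit, had 0.07 and COPS4 had 0.07, both higher in A549/146b on occasion 1 and lower on occasion 2. Of the Notch and NUMB partners 8 of 15 were expressed, with a median of 0.04 (-0.004 without A549/146b replicate 1). ITCH, a ubiquitin ligase that NUMB brings to Notch, had 0.44 (adjusted p = 0.113 from limma), and the ligand JAG1 had 0.36. The ligand JAG2 had -0.18, with -0.30 from its other probe, and the receptor NOTCH3 had -0.17. The brightest JAG2 probe had -0.55 on occasion 1 and 0.19 on occasion 2, while ITCH, JAG1 and NOTCH3 kept their direction.

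SMAD proteins and TGF-beta family receptors had a median of 0.19, with 7 of 10 expressed genes above 0. It was 0.32 on occasion 1 and 0.05 on occasion 2, and 0.10 with A549/vec replicate 1 left out. It was 0.09 with a detection limit of 0.05 and without A549/146b replicate 1. The receptor BMPR2 had 216 and 195 in A549/146b, against 140.3 and 168 in A549/vec, a log2 fold change of 0.42 (adjusted p = 0.143 from limma). SMAD5, which carries BMP signals, had 0.37, TRIM33, a ubiquitin ligase that binds SMAD4, had 0.32, with 0.26 from its other probe, and the receptor TGFBR2 had 0.20. Of the genes that work with UHRF1 in keeping DNA methylation 7 of 9 were expressed, with a median of -0.17 and 4 below 0. The median was -0.07 with detection on all arrays. LIG1, the ligase of the lagging strand, had 457 and 481 in A549/146b, against 722 and 534 in A549/vec, and a log2 fold change of -0.40 (adjusted p = 0.163 from limma). USP7, which stabilizes UHRF1, had -0.22, and DNMT3B and HDAC1 each had -0.17.

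Among 12 other genes reported as miR-146 targets 10 were on the array and 4 were expressed, and none was called. All 4 had a fitted fold change above 0, with a median of 0.09. On occasion 1 their median was 0.22 and on occasion 2 it was -0.05, and 3 of the 4 differed in direction between the occasions. The fitted median was 0.03 with a detection limit of 0.05. With 1 array left out it ran between 0.00046 (A549/146b replicate 1) and 0.179 (A549/vec replicate 2). BRCA1 had 333 and 414 in A549/146b, against 287 and 316 in A549/vec, a log2 fold change of 0.30 (adjusted p = 0.357 from limma). EGFR had 0.15, with -0.01 from its other probe, NOTCH1 had 0.03, and RARB had 0.01, with -0.06 from its other probe.

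**Figure D5:**
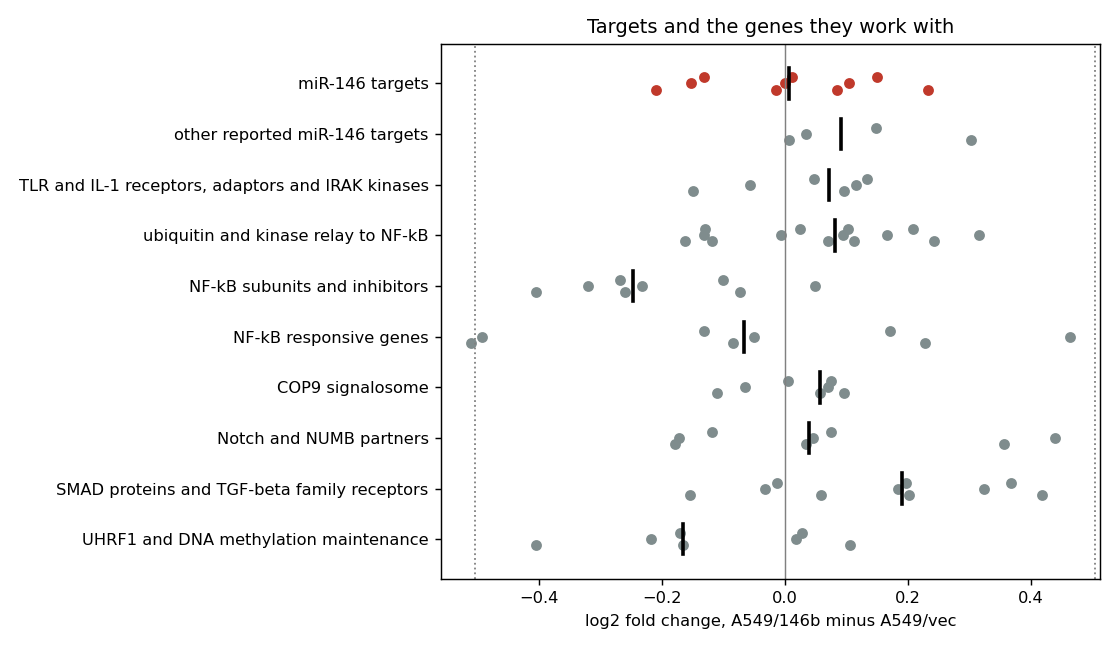
Log2 fold change, A549/146b minus A549/vec, of each expressed gene (points, 1 probe per gene) in the 10 targets (red) and in 9 lists of related genes (grey), with the median of each as a black bar and the smallest called size, 0.50, as dotted lines. TNFAIP2 is the only point beyond the dotted lines; the medians are 0.01 for the targets, -0.25 for the NF-kB subunits and inhibitors and 0.19 for the SMAD list.

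The probes whose log2 values were nearest to those of IRAK1 and TRAF6 over the 4 arrays, after each was centred on its mean, were also looked up, with Euclidean distance as the measure. For IRAK1 they were L3MBTL2 (distance 0.0207), EMC8 (0.0262) and LPCAT4 (0.0264), with log2 fold changes of -0.22, -0.22 and -0.23. For TRAF6 they were WDR41 (0.012), SENP7 (0.0122) and RPS29 (0.0135), with 0.16, 0.15 and 0.15. Such neighbours were common, since 364 tested probes lay within 0.1 of IRAK1 and 488 within 0.1 of TRAF6.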

How the data were processed

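Total RNA of the 4 cultures was labelled and hybridized to HumanRef-8 v3.0 bead arrays. The authors summarized beads in GenomeStudio and processed the signals in lumi 1.14 under R 2.11.1 (background correction, variance stabilization, robust spline). The deposited files hold intensity before normalization, normalized intensity on a linear scale, and a detection p-value per probe and array. Within each array the rank order was the same before and after normalization. The targets were found by the symbols of the platform annotation, which can be old. For the lists, markers and neighbours the current symbol was taken through the Entrez gene ID, where it was known. In the annotation 21834 probes have exactly 1 symbol and 2692 do not.

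Log2 of the normalized intensity was fitted with limma 3.58.1 in R 4.3.3 on the 10559 probes detected (p under 0.01) on 1 array or more. The terms were the line and, as a block, the occasion, and p-values were adjusted by Benjamini-Hochberg over all of them. The fit had 1 residual and 1025 prior degrees of freedom (prior SD 0.143). The study grew both lines concurrently and compared them in pairs. The labels number the cultures 1 and 2 in each line, and the number was taken as the occasion. Deviations from the line's mean correlated by -0.0464 within an occasion, which neither crosses nor supports the pairs. The fit was run on simulated data in which all probes and arrays had the same spread. The real arrays were not alike in this, so that run does not show how reliable the calls are. Differences between occasions were read from the block term after the values were seen.

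The targets and 9 lists were chosen with earlier results of these data known. TNFAIP3 and NOTCH1 stand in more than one list. One further list is not reported here. Named are every target probe, each called list gene and at most 4 others with the smallest p per list, and the 3 probes nearest to IRAK1 and to TRAF6. NFKBIE, NFKBIZ, PELI2, TNFAIP3 and GPS1 were named after their values were seen. Alternatives were no block, neqc, quantile normalization, median scaling, other detection filters, a variance trend, the mean over a gene's probes and leaving out each array. With 4 arrays, their number limits the precision.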

Additional observations from a re-analysis of the deposited data

How the results depend on the processing

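No target was called under any of 12 alternatives. The lowest adjusted p of a target from limma was 0.408 with all arrays kept. IRAK1 stayed below 0 (-0.32 to -0.10) and TRAF6 above 0 (0.12 to 0.23) throughout, as did UHRF1 below 0 (-0.20 to -0.06) and ROCK1 above 0 (0.14 to 0.40, in 11 alternatives, since it was not detected on all arrays). COPS8 changed sign with neqc (-0.0032) and quantile normalization (-0.0028), and NUMB with median scaling (0.0256). With 1 array left out, which drops the pairing, IRAK2 ran between -0.22 and 0.39, CARD10 between -0.165 and 0.188, COPS8 between -0.041 and 0.042, NUMB between -0.099 and 0.0695, SMAD4 between -0.0321 and 0.239, and RELB between -0.392 and 0.0852.

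The count of called probes, 98, depended on the processing. It was 12 without the replicate block, 21 with neqc, 7 with median scaling, 33 with detection on all arrays, 2 with a detection limit of 0.05, and 0 with no filter in limma, where 1984 probes had an unadjusted p under 0.05. Quantile normalization gave 84 and a variance trend 72. With 1 array left out it ran between 12 and 868, with 868 when A549/vec replicate 2 was dropped and 49 when replicate 1 of that line was. Of the list genes 1, TNFAIP2, was called, and 0 were with all arrays kept under the other settings, the fit without the replicate block included. With 1 array left out there were 0 to 11, the 11 without A549/vec replicate 2 and 1, CXCL2, with replicate 1 of that line dropped. The block changed no other call among the targets and lists. With all arrays kept, 15 medians over the targets and lists moved by more than the spread between replicates and 75 did not. That spread differed between lists, so the 75 are not a count of stable medians. The median of NF-kB responsive genes, -0.067, turned to 0.043 with detection on all arrays and is among the 75. That of the UHRF1 list, -0.166, was -0.159 with neqc and is among the 15. The planned count of seed matches in 3′ untranslated regions was not run here, nor was its alternative with bases 2 to 7. Signal over background limits the dimmest targets, and with neqc the fold changes of TRAF6, ROCK1, UHRF1 and RELB were 0.23, 0.40, -0.20 and -0.22.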
